A study of Vitis vinifera with 171 samples.

Results

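VIT_02s0087g00930 is one of the grapevine genes annotated as a 9-cis-epoxycarotenoid dioxygenase (NCED), an enzyme of abscisic acid (ABA) synthesis. Its expression was followed in berries of a single clone, clone 48 of Vitis vinifera cultivar Corvina, across vineyards, growth years and ripening stages. The gene was taken by its identifier, and 1 of the 29,545 probe sets on the array, made of 4 probes, was assigned to it. The data comprised 171 NimbleGen arrays in 57 groups of 3 biological replicates, each group being 1 vineyard in 1 year at 1 stage. In 2008, 11 vineyards were sampled at veraison (the onset of ripening), mid-ripening and harvest: VM, GIV, CS and BA in the Bardolino area, BM, MN, PSP and FA in the Valpolicella area, and PM, CC and AM in the Soave area. In 2006 and 2007 the same stages were sampled in AM, CS, MN and PSP only. RNA came from the pericarp of whole berries after removal of the seeds, with no treatment other than the growing site and season. The replicates of a group came from the same vineyard, so the spread between them is the spread within that vineyard.

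NCED cleaves 9-cis-epoxycarotenoids in plastids to give xanthoxin, the committed and usually rate-limiting step of ABA synthesis. Xanthoxin leaves the plastid and is converted through abscisic aldehyde to ABA, the last oxidation being carried out by an aldehyde oxidase that needs a sulfurated molybdenum cofactor. Grape is a non-climacteric fruit, and ABA is known to accumulate in the berry around veraison and to promote colouring and sugar accumulation. Plants carry several NCED genes, which differ in where and when they are expressed.

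Expression values are the log2 of the mean fluorescence intensity of the 4 probes, so that a difference of 1 is a 2-fold change. The transcript was abundant in nearly all berries. The 57 group means had a median of 12.27. In 55 groups, every array placed the gene between the 66.0th and the 95.6th percentile of all probe sets, at least 2.63 above the 95th percentile of the random control probes of the same array. Of the 57 means, 6 were above 13, 34 lay between 12 and 13, 15 between 11 and 12, and 2 below 11. The pooled SD between replicates was 0.23, against an SD of 0.55 over the 55 group means. Arranged by level, 53 of the 56 pairs of neighbouring groups had overlapping replicate ranges, so the order is one of blocks rather than of single groups.

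The highest mean belonged to CS at harvest in 2007, with 13.52, 13.57 and 13.54 on the 3 arrays. PSP at mid-ripening in 2007 followed with 13.52, 13.44 and 13.46. PM at harvest in 2008 gave 13.33, 13.50 and 13.25, and AM at harvest in 2007 gave 13.15, 13.35 and 13.45. The arrays of CS were above all others, and those of the next 3 groups each overlapped with their neighbours. The remaining means above 13 were those of CS at mid-ripening, 13.23 ± 0.14 in 2008 and 13.19 ± 0.24 in 2007 (SD, n = 3 each). CS therefore supplied 3 of the 6 highest groups.

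The other end of the order was formed by 2 groups of the same stage and year. MN at veraison in 2007 read 6.28, 6.55 and 5.90, and PSP at veraison in 2007 read 9.77, 9.62 and 9.70. Neither overlapped with any other group, and the next lowest, BM at veraison in 2008, read 10.83, 11.48 and 11.22. In MN, only 1 of the 3 arrays exceeded the 95th percentile of its random probes, and the gene stood between the 14.7th and the 21.0th percentile of all sets. PSP stood between the 50.6th and 52.7th percentile. With both groups included, the SD over the 57 means was 1.02. RNA was extracted from whole pericarp, so a lower proportion of cells with the transcript and less transcript per cell cannot be told apart in any of these values.

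**Figure D1:**
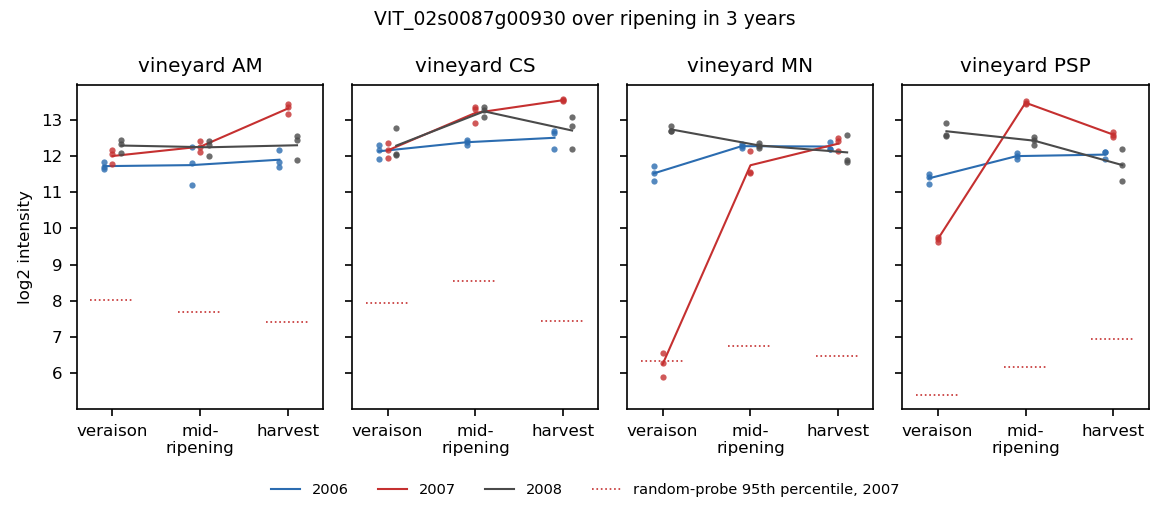
Expression of VIT_02s0087g00930 (log2 mean intensity) on single arrays (points) and as group means (lines) over veraison, mid-ripening and harvest in AM, CS, MN and PSP, the vineyards sampled in all 3 years, with the highest random-probe 95th percentile among the arrays of each 2007 group dotted. The veraison samples of MN and PSP in 2007, at means of 6.24 and 9.70, lie below all the others, and by mid-ripening of that year both vineyards are at 11.75 or higher.

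Each of the 4 probes was examined separately, because the gene value rests on them. Each followed the mean of the other probes with Pearson's r between 0.963 and 0.989 over the 57 group means and between 0.884 and 0.963 over the 55 without MN and PSP at veraison in 2007. These correlations describe probes of 1 transcript on the same arrays. In MN at veraison in 2007 all 4 probes were at their lowest, with means between 5.65 and 6.72. The same probes read 7.86 to 10.27 in PSP at that stage, and their lowest means in the other 55 groups were 9.69 to 11.66. The low values were shared by the whole probe set. The probes differed at the upper end of the range. Probe 1 read 12.63 to 13.30 in the 6 groups with the highest gene means and 9.69 to 12.08 in the remaining 49 of the 55. The gene means also left a gap there, with 13.19 as the lowest of the 6 and 12.84 as the next. By probe 3 and by probe 4 there was none. By probe 3, FA at harvest in 2008 (13.12) was above PM at harvest in 2008 (13.07), which belongs to the 6. By probe 4, FA at veraison in 2008 (13.20) was above CS at mid-ripening in 2007 (12.94), which also belongs to the 6.

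**Figure D2:**
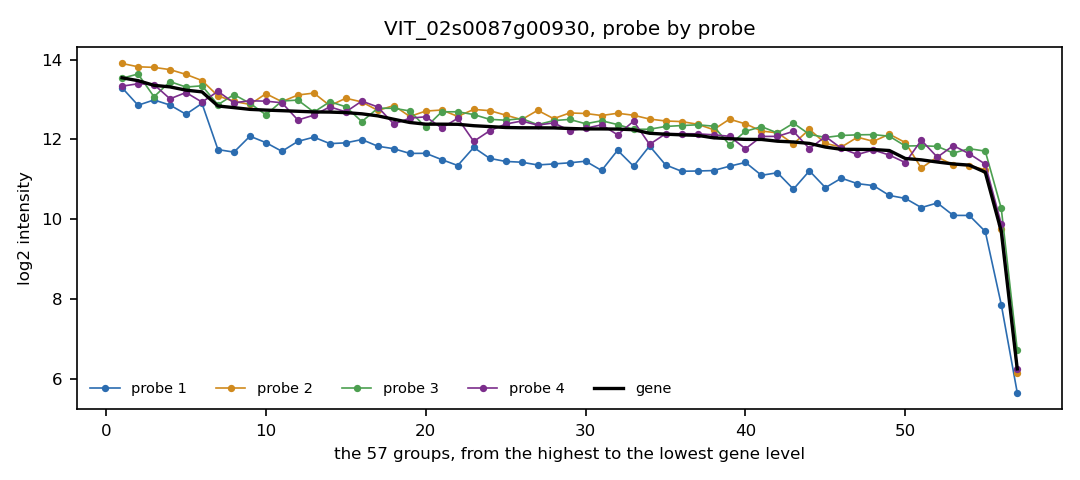
Level of each of the 4 probes of VIT_02s0087g00930 (log2 intensity, group means, 1 line per probe, the gene value in black) over the 57 groups arranged by the gene's mean. All 4 lines drop together in the 2 lowest groups, where the means are 5.65 to 6.72 in MN and 7.86 to 10.27 in PSP.

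In 2008 the gene varied more between vineyards than between stages. The study itself listed the gene for its variation between the 11 vineyards of that year, so these levels are described without a test. Averaged over the stages, PM (12.83), FA (12.77) and CS (12.74) were highest. MN, BA, VM, GIV, PSP and AM lay between 12.38 and 12.28, with steps of at most 0.04 from one to the next. CC (11.55) and BM (11.51) were lowest and were separated from AM by 0.73. Of the sum of squares among the 33 means of 2008, vineyard accounted for 67.7%, stage for 3.66% and the remainder for 28.6%. These shares are not adjusted for the vineyards being more numerous than the stages. Most slides carried few vineyards: all arrays of BM shared a slide, and all those of AM in 2008 shared another. Vineyard and slide therefore cannot be told apart in these differences.

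The order of the vineyards differed between stages. At veraison the means fell in the order FA, MN, PSP, GIV, PM, VM, AM, CS, BA, CC and BM, over a range of 1.66 (3.16-fold). FA, at the top, gave 12.74, 13.07 and 12.70. BM, at the bottom, has its values above, and CC gave 11.13, 11.44 and 11.49. Only the step between BA and CC separated neighbouring vineyards, and all arrays of CC and BM were below all arrays of the other 9.

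At mid-ripening the order was CS, PM, BA, VM, FA, PSP, GIV, MN, AM, BM and CC, over a range of 1.75 (3.36-fold). CS read 13.27, 13.35 and 13.08, above every array of PM, which was next. AM and BM were also separated, as were BM (11.93, 11.91 and 11.96) and CC (10.95, 11.82 and 11.69). The other 7 of 10 neighbouring pairs overlapped.

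At harvest the order was PM, FA, CS, AM, BA, MN, VM, GIV, CC, PSP and BM, over a range of 1.92 (3.79-fold). PM stood above FA, whose arrays read 12.88, 12.35 and 13.16, and this was the only separated pair of neighbours. BM was again lowest, with 11.23, 11.62 and 11.45. Counting all 55 pairs of vineyards, 29 did not overlap at veraison, 41 at mid-ripening and 29 at harvest. Over the 11 vineyards, which share slides and normalization between stages, Pearson's r was 0.61 between veraison and mid-ripening, 0.63 between mid-ripening and harvest and 0.45 between veraison and harvest.

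**Figure D3:**
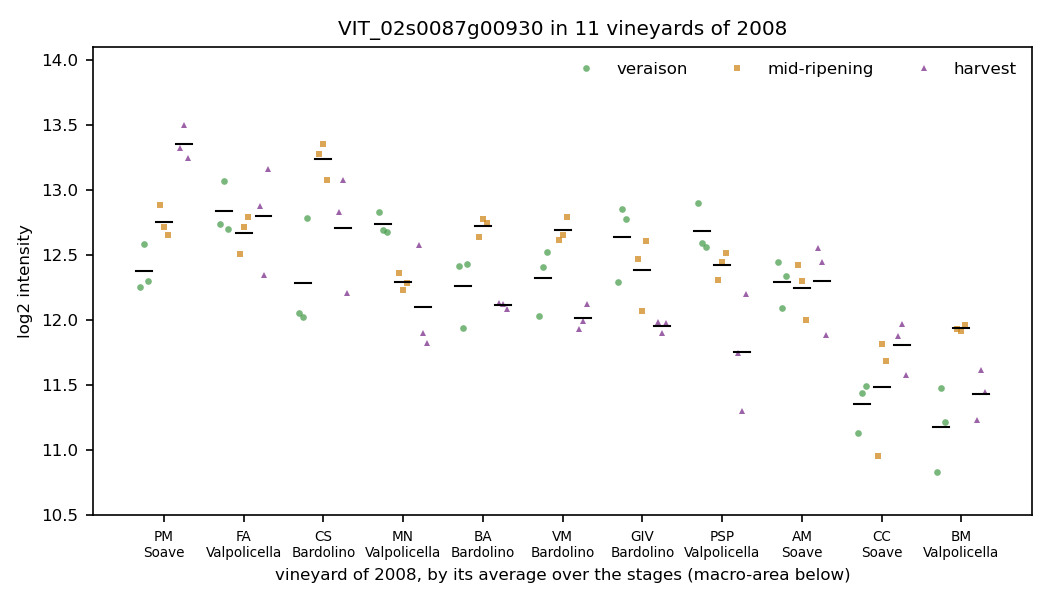
Expression of VIT_02s0087g00930 (log2 mean intensity) in the 11 vineyards of 2008 at veraison, mid-ripening and harvest, with single arrays as points and means as bars across them. CC and BM have the lowest averages over the stages, 11.55 and 11.51, and PM at harvest is the highest group of the year at 13.36.

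Single vineyards therefore ran different courses through ripening in 2008. In PM the means at veraison, mid-ripening and harvest were 12.38, 12.75 and 13.36. In PSP they were 12.68, 12.42 and 11.75, with no overlap between the harvest arrays and those of the earlier stages. CS peaked at mid-ripening, with means of 12.29, 13.23 and 12.71 in order of stage. In AM the 3 means lay within 0.06 of each other. The macro-areas gave no such separation. Vineyard averages were 12.44 ± 0.20 in Bardolino (n = 4), 12.24 ± 0.52 in Valpolicella (n = 4) and 12.22 ± 0.64 in Soave (SD, n = 3), and both Valpolicella and Soave held 1 of the 3 highest and 1 of the 2 lowest vineyards. The difference of 0.23 between areas did not pass the test (limma F, Benjamini-Hochberg adjusted p = 0.934, exact permutation p = 0.784 over 11,550 assignments). Of all sets, 0.00% were called between areas, that is 0 sets by limma, with 2468 at an unadjusted p under 0.05.

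Over the 11 vineyards of 2008 no stage step of the gene passed the test, in a year in which a large part of the transcriptome did. Mid-ripening minus veraison was 0.17 ± 0.14 (SE; limma adjusted p = 0.344), higher in 6 vineyards and lower in 5, while 46.9% of all sets were called. Harvest minus mid-ripening was -0.23 ± 0.14 (adjusted p = 0.236; 36.8% of sets called), higher in 4 vineyards and lower in 7. Harvest minus veraison was -0.06 ± 0.14 (adjusted p = 0.748; 57.3% of sets called). Exact two-sided sign-flip permutation tests over the 11 vineyards gave p = 0.239, 0.113 and 0.741 for these steps in the same order. On single arrays, whose replicates belong to 1 vineyard each, the step into harvest passed with the same value (adjusted p = 0.0275).

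In 2006 the means of the 4 vineyards were 11.69, 12.10 and 12.18 at veraison, mid-ripening and harvest. Harvest was above veraison in 4 of 4 vineyards, by 0.18 in AM, 0.37 in CS, 0.66 in PSP and 0.74 in MN, without overlap between arrays in PSP and MN. The fitted difference of 0.49 ± 0.63 did not pass the test (adjusted p = 0.633, 26.4% of sets called), nor did mid-ripening minus veraison, 0.41 ± 0.63 (adjusted p = 0.746, 14.8% called), or harvest minus mid-ripening, 0.08 ± 0.63 (0.220% called). The fit takes 1 spread from all 36 means of the 4 vineyards, and this spread includes the MN and PSP samples of 2007. With slide as a random block on single arrays the difference between harvest and veraison of 2006 was 0.88 (adjusted p = 0.00143) and that between mid-ripening and veraison 0.62 (adjusted p = 0.0216).

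In 2007 expression was higher later in ripening in all 4 vineyards. Harvest minus veraison was 2.93 ± 0.63 (limma adjusted p = 0.000786, 30.0% of sets called), with 6.10 in MN, 2.89 in PSP, 1.39 in CS and 1.32 in AM and no overlap between the arrays of the stages in any of them. Mid-ripening minus veraison was 2.64 ± 0.63 (adjusted p = 0.00571, 12.4% of sets called), with 5.50 in MN, 3.78 in PSP, 1.04 in CS and 0.26 in AM. In MN, where most veraison arrays did not exceed the random probes, the transcript was at least 41.8-fold higher at mid-ripening and at least 63.3-fold higher at harvest than at veraison. These bounds set the mean of the later stage against the mean, over arrays, of the gene's own value or of the lowest set above the random 95th percentile, whichever was higher. From mid-ripening to harvest the vineyards diverged: AM gained 1.06 and PSP lost 0.88, in both cases without overlap, and the fitted step was 0.28 ± 0.63 (adjusted p = 0.913, 3.62% of sets called). With 4 vineyards the sign-flip test cannot go below 0.125, which is what each of these harvest and mid-ripening differences from veraison gave.

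The rise to harvest in 2007 passed the test in the fits of every vineyard and replicate left out in turn. The mid-ripening difference did not pass without PSP (2.27, adjusted p = 0.116), and without MN and PSP it was 0.65 (adjusted p = 0.149), while harvest minus veraison was then 1.35 (adjusted p = 0.0165). Arrays of 1 vineyard that shared a slide gave the same direction. Harvest minus veraison was then 1.32 in AM and 1.59 in CS. Mid-ripening minus veraison was 0.26 in AM, 1.24 in CS and 5.31 in MN. The CS values rest on 1 veraison array. In PSP each stage of 2007 was on a different slide, so its stage differences are also differences between slides.

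Set against 2006 and 2008, the gene was lower in 2007 at veraison, in 2 of the 4 vineyards. At this stage 2007 minus the mean of 2006 and 2008 was -2.07 ± 0.55 (limma adjusted p = 0.00611), where 27.3% of sets were called. The 4 vineyards did not share this value. It was -5.88 in MN and -2.34 in PSP, and -0.01 in AM and -0.06 in CS. MN at veraison read 6.28, 6.55 and 5.90 in 2007, against 11.72, 11.54 and 11.30 in 2006 and 12.83, 12.69 and 12.68 in 2008. MN of 2006 was at least 35.8-fold higher than MN of 2007 at this stage, and MN of 2008 at least 83.0-fold higher. PSP read 9.77, 9.62 and 9.70 in 2007, against 11.43, 11.49 and 11.23 in 2006 and 12.90, 12.59 and 12.56 in 2008. In AM and CS the arrays of 2007 overlapped with those of at least 1 other year. Vineyard and year follow the deposited labels. In clusters 2 to 4 of a supplementary table, columns matched by their values put the MN samples of 2007 veraison under PSP of 2007, the PSP samples of 2007 under PSP of 2006, and the PSP samples of 2006 under MN of 2007, whereas cluster 1 of that table follows the deposited labels. Another supplementary table gives mid-ripening and harvest values minus veraison. Under the deposited labels, 1205 of the 1263 genes read from it were matched, with a median best r of 0.99. Which labelling is right was not tested.

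The call at veraison rested on both low vineyards. Without MN the difference was -0.80 (adjusted p = 0.107), without PSP -1.98 (adjusted p = 0.0521), and without either -0.03 (adjusted p = 0.920). An exact two-sided permutation of the year labels within vineyards (81 assignments) gave p = 0.0617. The low PSP arrays were hybridized on the same slide as all PSP arrays of 2006, and the difference of 2007 minus 2006 at veraison within that slide was -1.69. The MN arrays shared a slide with MN samples of 2007 mid-ripening and AM samples of 2006. On the low arrays of MN the random-probe 95th percentile was 6.11 to 6.34, and on those of PSP 5.17 to 5.41, with values of up to 9.42 on arrays of other groups.

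At harvest the gene was higher in 2007 than the mean of the other years in 4 of 4 vineyards, by 1.22 in AM, 0.94 in CS, 0.70 in PSP and 0.16 in MN. In CS the arrays read 13.52, 13.57 and 13.54 in 2007, against 12.68, 12.20 and 12.63 in 2006 and 12.83, 13.08 and 12.21 in 2008. In AM they read 13.15, 13.35 and 13.45 in 2007, against 12.16, 11.70 and 11.84 in 2006 and 12.56, 12.45 and 11.89 in 2008. In both vineyards, as in PSP, the arrays of 2007 were above all those of the other years, whereas in MN they overlapped. The mean difference of 0.75 ± 0.55 did not pass the test in the fit of all 36 means (adjusted p = 0.391, 10.3% of sets called). The exact permutation of the year labels gave p = 0.0123, the smallest its 81 assignments allow (0.0206 after Benjamini-Hochberg adjustment over the 5 year comparisons tested this way). Without MN and PSP, the difference was 1.08 (adjusted p = 0.00317), and on single arrays 0.75 passed with an adjusted p of 0.0311. With slide as a random block on single arrays it was 0.0702 (adjusted p = 0.898). At mid-ripening the difference was 0.34 ± 0.55 (adjusted p = 0.719, 9.63% of sets called), with 1.26 in PSP, 0.38 in CS, 0.26 in AM and -0.54 in MN, and with the slide block it turned to -0.0784 (adjusted p = 0.884).

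**Figure D4:**
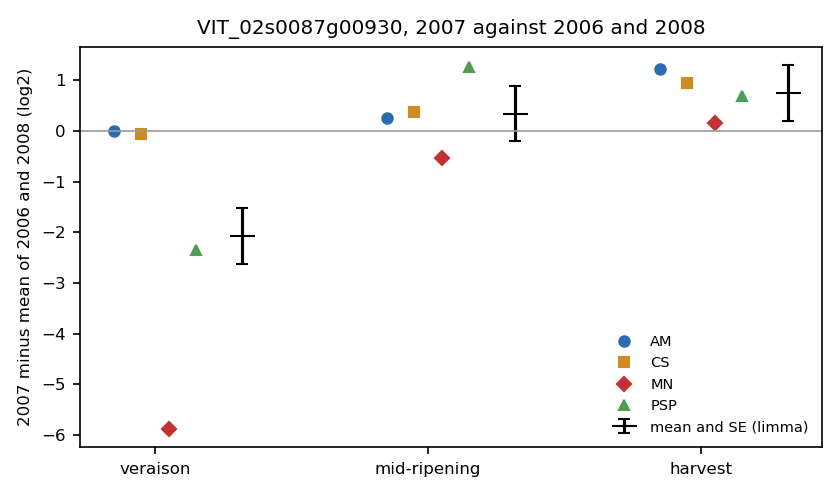
Difference between 2007 and the mean of 2006 and 2008 in expression of VIT_02s0087g00930 (log2 units) at veraison, mid-ripening and harvest in AM, CS, MN and PSP (1 point per vineyard, with the mean over vineyards and the SE of the limma fit in black). At veraison MN (-5.88) and PSP (-2.34) stand apart from AM and CS, which are at -0.01 and -0.06, and at harvest all 4 vineyards are above 0.

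The increase over ripening was larger in 2007 than in the mean of the other years. For harvest minus veraison the excess was 2.82 ± 0.77 (limma interaction, adjusted p = 0.0350, 4.31% of sets called) and was positive in 4 of 4 vineyards, with 6.05 in MN, 3.03 in PSP, 1.22 in AM and 1.00 in CS. For mid-ripening minus veraison it was 2.41 ± 0.77 (adjusted p = 0.0871, 2.93% of sets called), again positive in 4 of 4, with 5.35 in MN, 3.60 in PSP, 0.44 in CS and 0.27 in AM. Each gave an exact permutation p of 0.0123, the smallest possible (0.0206 adjusted). The call of the harvest interaction was lost without CS (3.43, adjusted p = 0.0861), without MN (1.75, adjusted p = 0.104), without PSP (2.76, adjusted p = 0.191), without MN and PSP (1.11, adjusted p = 0.103) and, narrowly, without replicate B (2.81, adjusted p = 0.05002). Between single years, 2008 minus 2007 at veraison passed (2.48, adjusted p = 0.00403, 29.1% of sets called; without MN 1.14, adjusted p = 0.0514), whereas 2007 minus 2006 (-1.67, adjusted p = 0.0690, 16.0% called) and 2008 minus 2006 (0.81, adjusted p = 0.479, 11.9% called) did not. At mid-ripening 2007 minus 2006 was 0.57 (5.45% of sets called), 2008 minus 2007 was -0.12 (2.06% called) and 2008 minus 2006 was 0.45 (0.0305% called). At harvest these were 0.77 (0.487% called), -0.74 (12.4% called) and 0.04 (0.193% called), and none of the 6 passed for the gene (adjusted p from 0.479 to 1.000).

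The vineyards of 2006 and 2007, which the study did not use to list the gene, also differed at each stage. In 2006 the highest minus the lowest of the 4 means was 0.75 at veraison (limma F, adjusted p = 0.000946, 53.5% of sets called), 0.63 at mid-ripening (adjusted p = 0.00504, 51.8% called) and 0.61 at harvest (adjusted p = 0.00989, 52.2% called). CS was highest at all 3 stages. PSP was lowest at veraison and AM at the later stages. In 2007 the range was 5.91 at veraison (adjusted p = 3.1e-35, 87.0% of sets called), 1.73 at mid-ripening (adjusted p = 1.88e-13, 78.2% called) and 1.20 at harvest (adjusted p = 7.18e-09, 70.7% called). CS was highest at veraison and harvest and PSP at mid-ripening, and MN was lowest throughout. At veraison of 2007, PSP was at least 10.1-fold, AM at least 49.9-fold and CS at least 55.5-fold higher than MN. These tests compare samples of single vineyards, and most slides carried 1 or a few vineyards, so vineyard and slide cannot be told apart. The calls of 2006 were also lost when single replicates were removed: without replicate A at veraison (0.69, adjusted p = 0.0522), mid-ripening (0.69, adjusted p = 0.0758) and harvest (0.65, adjusted p = 0.0883), and without replicate C at mid-ripening (0.38, adjusted p = 0.168) and harvest (0.51, adjusted p = 0.103). With slide as a random block, the harvest range of 2006 was 0.40 (adjusted p = 0.469).

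Marker genes of berry stage were examined, of which 3 of 4 for ripening pericarp, 2 of 3 for green berries and 1 of 2 for seed storage had a probe set. Not all of them differed between veraison and harvest. In 2008 harvest minus veraison was -0.08 for grip22 and 0.31 for VvMYBA1, and neither passed (limma adjusted p = 0.714 and 0.294). The same held in 2006, with 0.25 and 0.73 (adjusted p = 0.855 and 0.447). In 2007 VvMYBA1 passed (2.54, adjusted p = 0.00301) and grip22 did not. PR1 rose by 6.02 in 2008, and the green-berry markers gave -4.16 and -3.38. At veraison in 2007, MN was the lowest of all 57 groups for 2 of the 3 ripening markers and the highest for both green-berry markers. grip22 (VIT_06s0004g02560), a ripening-induced gene, read 6.08, 7.96 and 6.29 in MN and 11.23, 11.50 and 11.12 in PSP, against group means of 12.90 to 14.71 in the other 17 veraison groups. VvMYBA1 (VIT_02s0033g00440), a regulator of anthocyanin synthesis, averaged 4.95 in MN and 9.56 in PSP, against 8.22 to 11.91. PR1 (VIT_03s0088g00710), which in 2008 rose by 3.97 to mid-ripening and by a further 2.05 to harvest, averaged 7.50 in MN and 8.75 in PSP, against 4.95 to 8.76. The summed signal of these markers was 8.33 in MN and 11.84 in PSP, against 13.11 to 14.81 in the others. The sum is taken on linear intensities, so in PSP and the other 17 groups it mainly follows grip22, the brightest marker there. VvMYBA1 and PR1 of PSP were within the range of those 17 groups.

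The green-berry markers, which are polyphenol oxidases of the chloroplast, stood at the other end in MN. VIT_00s0480g00070 averaged 12.59 in MN and 10.80 in PSP at veraison in 2007, against 8.29 to 11.22 in the other veraison groups, and VIT_10s0116g00560 averaged 13.49 in MN and 11.90 in PSP, against 9.59 to 12.79. Their summed signal was 14.11 in MN and 12.45 in PSP, against 10.08 to 13.21. The globulin-like seed storage gene VIT_12s0034g01900 exceeded the random probes on all 171 arrays, and at veraison in 2007 it was 10.72 in MN and 11.22 in PSP, against 10.18 to 11.55 in the others. The part of berry stage in the low NCED values of MN and PSP was not tested.

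**Figure D5:**
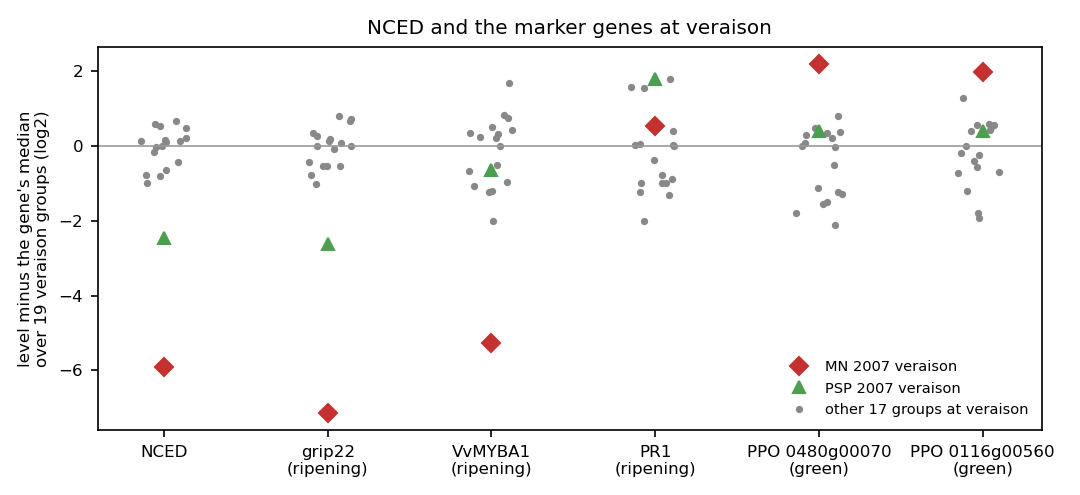
Level of VIT_02s0087g00930 and of ripening and green-berry markers at veraison, as the difference from the median of the 19 veraison groups (log2 units, 1 point per group), with MN and PSP of 2007 marked. MN of 2007 is lowest for NCED (6.24), grip22 (6.78) and VvMYBA1 (4.95) and highest for both polyphenol oxidases (12.59 and 13.49).

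The other genes of ABA metabolism, signalling and response were taken from a list of 24 genes annotated to ABA, of which 23 had a probe set. The second NCED gene of the list, VIT_02s0087g00910, was not matched and has no value here. Most of the listed genes were chosen by the study on these arrays for variation between years, stages or vineyards, so their counts are no independent evidence of a direction. Among the 23, 10 rose and 5 fell between veraison and mid-ripening of 2008, where 23.4% of all sets rose and 23.5% fell, and their median difference was 0.11 against -0.02 over all sets. From mid-ripening to harvest 1 rose and 6 fell (18.7% and 18.1% of all sets; medians -0.05 and 0.01), and harvest against veraison 7 were higher and 4 lower (29.1% and 28.2% of all sets; medians 0.06 and -0.01).

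Upstream of NCED, beta-carotene hydroxylase (VIT_02s0025g00240), which acts on the way to the xanthophylls that NCED cleaves, fell between veraison and mid-ripening of 2008 (-2.18 ± 0.20, limma adjusted p = 1.54e-08). Downstream, the molybdenum cofactor sulfurase (VIT_19s0027g01090), which activates aldehyde oxidase, rose by 0.16 to mid-ripening (adjusted p = 0.0276) and fell by 0.27 to harvest (adjusted p = 0.000901). The carotenoid cleavage dioxygenases VIT_13s0064g00840 and VIT_13s0064g00810, members of the wider family to which NCED belongs, had lower levels at mid-ripening by -0.23 and -0.25 (adjusted p = 0.0222 and 0.00546). In 2008, 5 of the 7 response genes of the HVA22 family, named after an ABA-induced barley protein, rose to mid-ripening by 0.83 to 1.64. The same 5 fell to harvest by 0.42 to 0.81. The largest of these steps were those of VIT_03s0132g00070 (1.64 ± 0.24, then -0.81 ± 0.24). None of the 5 passed for mid-ripening minus veraison in 2006 (-0.24 to 0.53) or in 2007 (-0.09 to 0.18). NCED itself passed neither step of 2008.

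At veraison of 2007, 5 of the 23 genes were higher and 3 lower than in the mean of 2006 and 2008 (13.6% and 13.7% of all sets; medians 0.33 and 0.11). Beta-carotene hydroxylase was lower (-2.57 ± 0.29, limma adjusted p = 1.21e-06) in each of the 4 vineyards, by -3.33 in CS, -2.73 in PSP, -2.47 in MN and -1.72 in AM. Its low level was thus common to the vineyards in which NCED was low and those in which it was not. The HVA22 gene VIT_03s0132g00040 was higher in 4 of 4 vineyards (0.96 ± 0.24, adjusted p = 0.00396). This came from low values in 2008: 2007 minus 2006 was 0.00443 (limma adjusted p = 0.994), and 2008 minus 2007 was -1.92 (adjusted p = 9.91e-06). VIT_10s0071g00550, annotated as an ABA-responsive protein with a GRAM domain, was also higher in 4 of 4 vineyards (1.24 ± 0.25, adjusted p = 0.000581). The second gene of that annotation, VIT_10s0071g00430, is counted among the 5 here and among those that fell in 2008, but exceeded the random probes on only 15 of 171 arrays, so its differences are not given. ABO1/ELO2 (VIT_13s0019g00590), an Elongator subunit that in Arabidopsis affects ABA responses, was higher in 4 of 4 vineyards (0.75 ± 0.21, adjusted p = 0.00943). The ABI3-interacting protein 2 gene VIT_04s0008g02290 was lower (-0.48 ± 0.11, adjusted p = 0.00208), as was ASR2 (VIT_18s0072g00380; -0.41 ± 0.11, adjusted p = 0.00561).

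At harvest of 2007, 2 of the 23 were higher and 1 lower (5.63% and 4.68% of all sets; medians 0.06 and 0.04). ABO1/ELO2 was higher by 0.86 (adjusted p = 0.0105) and the kinase gene OST1 (VIT_03s0063g01080), which in Arabidopsis acts in ABA signalling of guard cells, by 0.35 (adjusted p = 0.0278), and VIT_04s0008g02290 was lower (-0.46, adjusted p = 0.00913). For the interaction of harvest minus veraison, beta-carotene hydroxylase was the 1 gene of the list that passed (1.77 ± 0.41, adjusted p = 0.0146), where 2.62% of all sets passed in that direction. Its harvest level was below veraison by -2.38 in 2006, by -2.10 over the 11 vineyards of 2008 and by -0.56 in 2007. The interaction of beta-carotene hydroxylase was thus a smaller fall in 2007, whereas that of NCED was a larger rise.

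Likeness to other genes was measured as Pearson's r of the 57 group means, which share arrays and normalization, and is given as a description. Of the sets that carry a gene identifier, the closest was a thaumatin annotated as SCUTL2 (VIT_18s0001g11930, r = 0.84). It was followed by a gene annotated as disease resistance protein RPS2 (VIT_19s0090g00240, 0.80), a metallothionein (VIT_11s0052g00630, 0.80), VIT_11s0016g04920 (0.80), xyloglucan endotransglucosylase/hydrolase 32 (VIT_06s0061g00550, 0.79), which remodels cell walls, VIT_10s0116g01340 (0.78), VIT_05s0020g04010 (0.78), VIT_18s0122g00110 (0.77), SRO2 (VIT_01s0127g00680, 0.77) and VIT_14s0030g00600 (0.76). A further 36 sets without an identifier ranked among these 10, and the highest r of any set was 0.89. The most opposite were a polygalacturonase (VIT_01s0127g00870, -0.81), VIT_00s0194g00380 (-0.74), auxin response factor 9 (VIT_10s0116g00310, -0.71), a dimethylaniline monooxygenase (VIT_17s0000g06780, -0.71) and the histone deacetylase HD2A (VIT_06s0061g01240, -0.70), with 19 unnamed sets among them.

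The likeness was smaller in the other groups. Over the 55 groups without MN and PSP at veraison in 2007, r was 0.30 for VIT_18s0001g11930, 0.20 for VIT_11s0052g00630 and -0.10 for VIT_06s0061g00550. For the most opposite genes named above it lay between -0.54 and -0.37. grip22 (VIT_06s0004g02560) changed likewise, with r = 0.76 over 57 groups and 0.08 over 55. The number of sets with r above 0.8 was 15 over 57 groups, 0 over 55 and 0 over the 33 groups of 2008. VIT_14s0030g00600 was the exception, with 0.76 over 57, 0.69 over 55 and 0.72 within 2008, and was the 1 gene shared between the 10 closest of 57 groups and the 10 closest of each smaller set. Among the ABA genes, the highest r over 57 groups was that of VIT_06s0009g01180, annotated as UBA2a (0.52), and over 55 groups that of OST1 (0.51).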

How the data were processed

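The authors deposited linear Cy3 intensity values per probe, quantile normalized over all 171 arrays (the submitters' processing notes name RMA, whose version is not given in the sources used here). Quantile normalization forces all arrays to 1 distribution, so levels are relative. No gene was given per probe: probe numbers were tiled into 29,545 sets, and 5297 were named by correlating their median polish with values printed in the study's supplementary datasets, used for identity only. In 2 of these tables columns matched by their values other samples than their headers name (all vineyards but BM in the one that lists this gene). They were reassigned by genes that another table also lists, with the deposited sample labels taken as given. After this, the match of VIT_02s0087g00930 had r = 0.999, and the next set 0.797. Signal ranged from 9.16 to 63131.3, and 49.3% to 97.0% of sets per array exceeded the 95th percentile of 19,605 random probes. Among the 171 pairs of arrays within a group, none were identical.

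Stage and year contrasts were fitted with limma 3.58.1 (R 4.3.3, statmod 1.5.0) on triplicate means with vineyard as a fixed block, vineyards of 2006 and 2007 on single arrays, with Benjamini-Hochberg adjustment over all sets (threshold 0.05). Permutation tests were enumerated in Python 3.11.15 with numpy 2.4.6. The scripts were tested on simulated data. Named were this gene, the listed ABA genes, and the 10 most and 5 least alike genes with an identifier. The members and lists were chosen with earlier results of these data known. Alternatives were single probes, median polish, an offset of 50, subtraction of the random-probe level, a filter on dim sets, single arrays, replicate, slide or vineyard-year blocks, and leaving out replicates or vineyards, of which MN and PSP together were added after seeing the data.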

Additional observations from a re-analysis of the deposited data

Results flagged for a closer look

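The course of VIT_02s0087g00930 over ripening differed between 2007 and the other years. The difference between harvest and veraison exceeded that of 2006 and 2008 by 2.82 ± 0.77 (SE; limma interaction, adjusted p = 0.0350) and was larger in 4 of 4 vineyards. This call was lost when CS, MN, PSP or, narrowly, replicate B was left out. Without MN and PSP the excess was 1.11 and did not pass. The difference between mid-ripening and veraison exceeded it by 2.41 ± 0.77, which did not pass in the fit over all sets (adjusted p = 0.0871) but was at the smallest p that an exact permutation of year labels allows (0.0123), again with 4 of 4 vineyards in that direction. No group had more than 3 arrays, so single outlying arrays were not examined.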

How the results depend on the processing

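Of 675 recomputed values for 30 results of VIT_02s0087g00930, 612 kept their direction and their side of the threshold, 23 lost and 20 gained significance, and 20, none of them past the threshold as reported, turned in sign. The cause was not tested. Precision is limited by 4 vineyards per year in 2006 and 2007 and by 3 arrays per group, and the level of MN at veraison in 2007 is only a bound.

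The replicate letters did not pair samples: deviations of same-letter arrays within a vineyard and year correlated with a median r of 0.01, the lowest being -0.48, and 29.2% of 171 pairs exceeded 0.1. Single arrays with a replicate block gave harvest minus mid-ripening of 2008 as -0.23 (adjusted p = 0.0294; without the block 0.0275), 2007 minus 2006 at veraison as -1.67 (3.11e-05; 2.66e-05), 2007 minus 2006 and 2008 at harvest as 0.75 (0.0325; 0.0311) and the mid-ripening interaction as 2.41 (3.21e-06; 2.62e-06). With vineyard-year as a random block the last was 2.41 (0.0188). For stage and year contrasts, single arrays gave more calls than triplicate means, and the block itself slightly fewer. For mid-ripening minus veraison of 2006, the sets called numbered 11,435 on single arrays with the block and 11,472 without it, against 4384 on means. With the block they numbered 14,667 against 7801 on means for harvest minus veraison of 2006, 11,616 against 3668 and 16,390 against 8858 for the same steps of 2007, and 3380 against 65 and 7284 against 1069 for the steps into harvest of 2006 and 2007. For 2007 minus 2006 and 2008 they numbered 16,270 against 8071 at veraison, 12,727 against 2846 at mid-ripening and 12,480 against 3046 at harvest, and for the interactions 7343 against 866 and 9742 against 1272. Pairs of years moved alike, between 15,943 against 8603 and 2083 against 9.

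With slide as a random block, mid-ripening and harvest minus veraison of 2006 were 0.62 and 0.88, harvest minus mid-ripening of 2008 -0.20 (adjusted p = 0.0379), 2007 minus 2006 at veraison -1.75 (2.76e-06) and the mid-ripening interaction 1.89 (6.21e-07). The harvest range of 2006 was 0.40 (0.469). At mid-ripening 2007 minus the other years was -0.0784, 2007 minus 2006 -0.20 and 2008 minus 2006 -0.23, and at harvest 2007 minus the other years was 0.0702 (0.898), 2007 minus 2006 -0.30 and 2008 minus 2006 -0.74 (0.246).

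Without MN and PSP, mid-ripening minus veraison of 2007 was 0.65, 2007 minus the other years -0.0307 at veraison and 1.08 at harvest, 2007 minus 2006 0.15 and 1.23 (adjusted p = 0.00531) at these stages, 2008 minus 2007 0.21, 0.0131 and -0.93 (0.0160) at the 3 stages, and the harvest interaction 1.11. Without PSP, harvest minus veraison of 2008 was 0.0296, mid-ripening minus veraison of 2007 2.27, 2007 minus the other years at veraison -1.98, 2008 minus 2007 at mid-ripening 0.19 and the harvest interaction 2.76. Without MN, 2007 minus the other years at veraison was -0.80, 2008 minus 2007 1.14 and the harvest interaction 1.75. Without CS the harvest interaction was 3.43 and 2008 minus 2006 at harvest -0.0171. Without AM, 2007 minus 2006 at veraison was -2.31 (0.0498) and 2008 minus 2006 at harvest -0.0833. Without GIV, harvest minus veraison of 2008 was 0.00485.

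From the means of the stage alone, 2007 minus the other years at veraison was -2.07 (adjusted p = 0.136) and 2008 minus 2007 2.48 (0.117). With no vineyard term the harvest interaction was 2.82 (0.0608). With the random-probe level subtracted, 2007 minus 2006 at veraison was -1.79 (0.0471). By probe 4 alone it was -1.81 (0.0423), and 2008 minus 2007 at mid-ripening was 0.11. By probe 1 alone harvest minus veraison of 2008 was 0.0929, 2008 minus 2006 at harvest -0.00412 and the harvest range of 2006 0.56 (0.0618), and by probe 2 alone the last 2 were -0.0216 and 0.60 (0.0693).

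With each replicate left out in turn, harvest minus veraison of 2008 lay between -0.14 and 0.00706, harvest minus mid-ripening of 2006 between -0.00322 and 0.20, 2008 minus 2006 at harvest between -0.0158 and 0.14, and the harvest interaction between 2.76 and 2.90. The ranges of vineyards in 2006 lay between 0.69 and 0.78 at veraison, 0.38 and 0.85 at mid-ripening and 0.51 and 0.66 at harvest. Of 106 recomputed counts of rising or falling genes of the ABA list, 79 stayed within 1.5 times the reported count, 8 were larger and 19 smaller.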
